A study of Danio rerio with 21 samples.

Results

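Ribosome biogenesis genes encode the nucleolar proteins that make ribosomal RNA (rRNA), modify and cut it, and assemble it with ribosomal proteins into subunits. A list of 56 zebrafish genes of this kind was followed, and each gene was measured on the array row that carries its symbol alone, taking the row with the highest mean signal where there were several. Of the 56 genes, 51 had such a row among the 75212 features of the array. The other 5 (*ebna1bp2*, *mrto4*, *gnl2*, *nop14* and *imp3*) were found only on rows that carry more than 1 symbol and entered none of the counts of the 49 genes. A feature was tested when its log2 signal was over 6 in at least 1 of the 21 arrays, which 35783 features and 49 of the 51 genes met. *polr1b* and *gar1* did not meet it, and their values are given from a fit without this filter.

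The samples were heart ventricles of adult zebrafish of the TU strain, 10 to 11 months old, damaged by cryoinjury, in which a frozen probe kills part of the ventricle wall. Ventricles were collected at 4 hours post-injury (4 hpi) and at 1, 3, 7, 14 and 90 days post-injury (dpi), and uninjured fish served as control. Each of the 7 groups had 3 pools of 5 ventricles, each pool on its own Affymetrix Zebrafish Gene 1.0 ST array, so that the spread between arrays is a spread between pools and not between fish. No sham-operated group was among the samples used here, so that the effect of the freezing and that of the surgery cannot be told apart. The array medians lay between 5.138 and 5.196 on the log2 scale, and arrays of 1 group correlated at 0.952 to 0.977. Of 12 cardiomyocyte markers 10 had a row and passed the filter, among them *tnnt2a* with a control mean of 12.98 and *actc1a* with 13.49. Within groups, the median difference of the 49 genes from their control means was 0.03 in 14 dpi replicate 2 against 0.22 and 0.30 in the other two pools, and −0.03 in 90 dpi replicate 1 against −0.34 and −0.24. For the 49 genes as a whole, the counts higher at 14 dpi, lower at 90 dpi and lower from 14 to 90 dpi are also given without these pools. Counts by role and of other lists are given only with them.

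Making ribosomes begins in the nucleolus, where RNA polymerase I copies the rRNA genes into a long precursor. Small nucleolar ribonucleoproteins (snoRNPs) of the box C/D kind methylate this precursor and those of the box H/ACA kind turn chosen uridines into pseudouridine, while the small subunit processome folds and cuts its leading part and a separate set of factors matures the large subunit. In many cell types this programme is a known target of Myc transcription factors and accompanies growth, and in heart muscle a larger nucleolus is a known mark of hypertrophic growth.

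**Figure D1:**
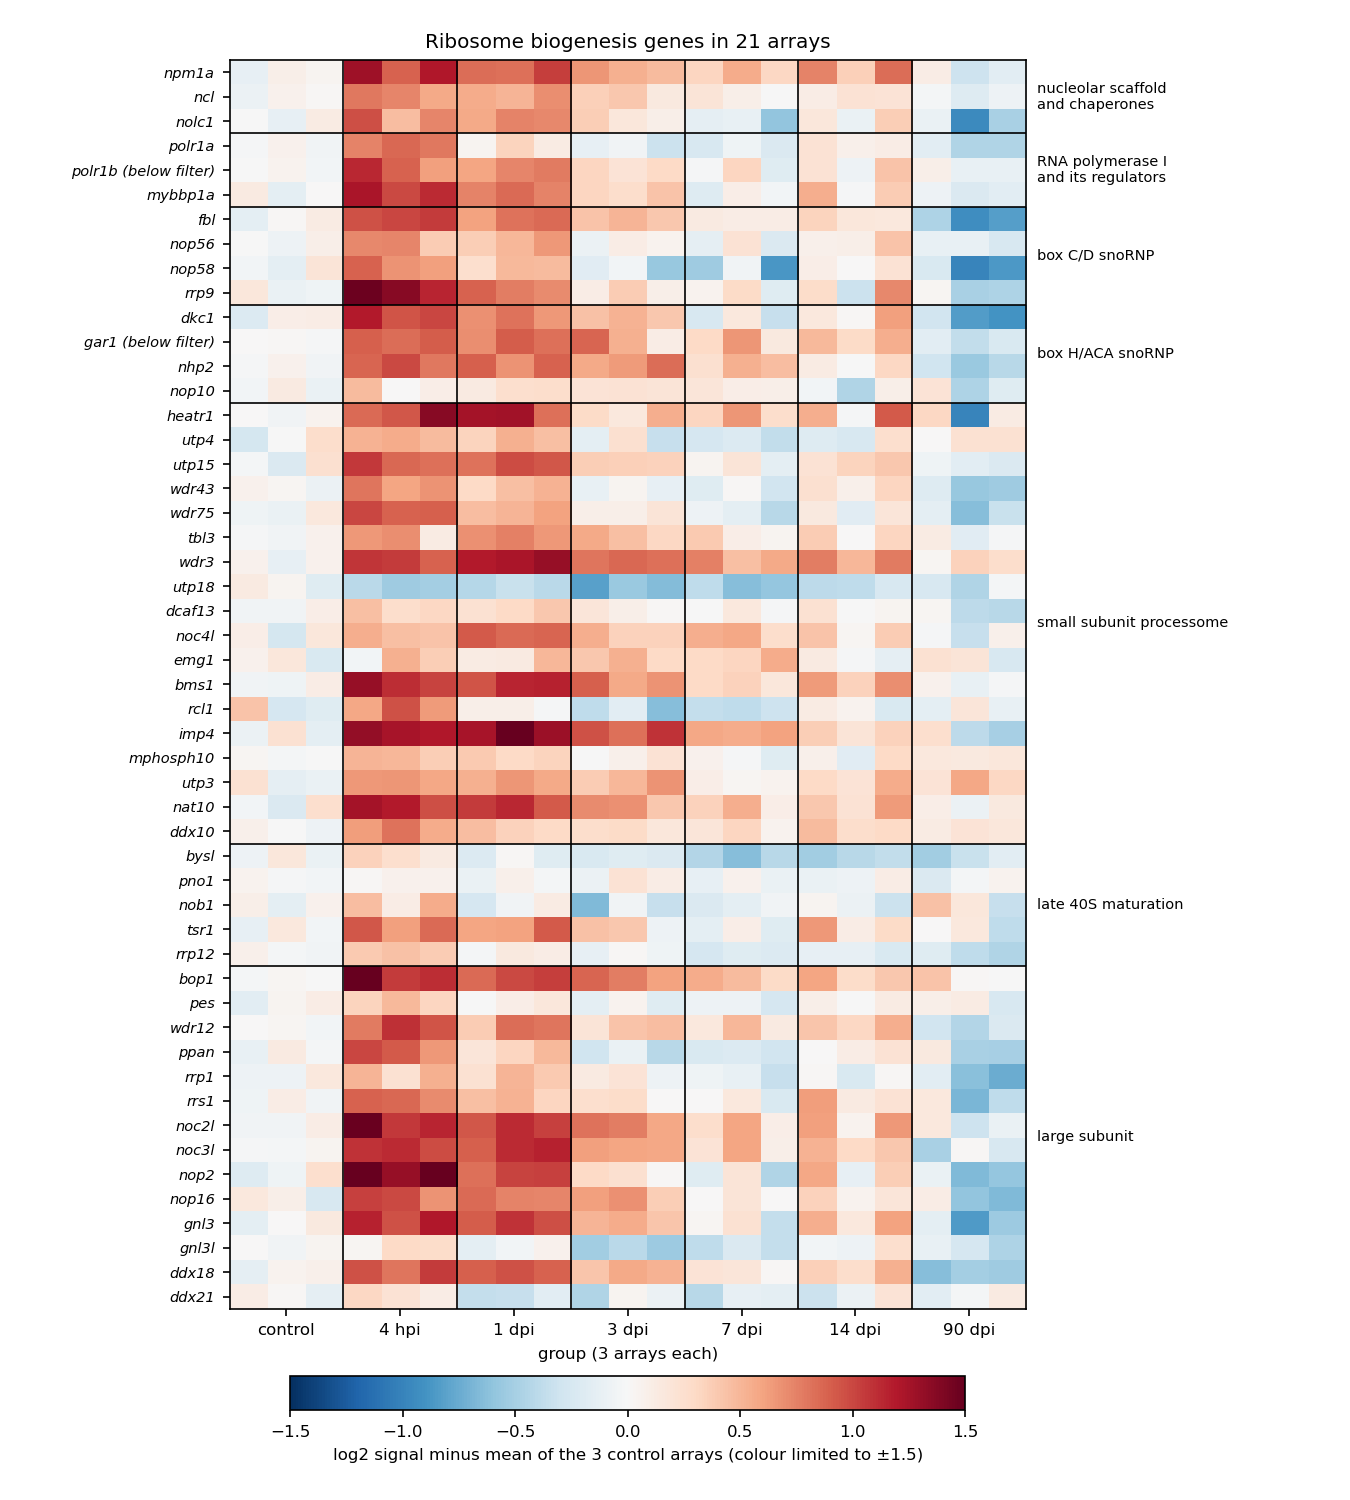
Log2 signal of 51 ribosome biogenesis genes (rows, grouped by role) in 21 arrays (columns, 3 per group), as the difference from the mean of the 3 control arrays. Most rows are red at 4 hpi and 1 dpi and paler from 3 dpi onwards, *utp18* is blue in every array from 4 hpi to 14 dpi, and many rows are blue in 90 dpi replicates 2 and 3.

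At 4 hpi, 41 of the 49 tested genes were higher than in control and 1 was lower, at an adjusted p under 0.05 in limma. Over all features tested, 21.3% were higher and 17.5% lower at this time. The median log2 fold change of the 49 genes was 0.80, and the median over all features was 0.05. The largest rise was that of *nop2*, by 1.43 ± 0.20 (SE, n = 3 against 3, adjusted p = 2.16e-05 in limma), and the only gene that fell was *utp18*, by 0.48 ± 0.12 (adjusted p = 0.00431). Of the other 7 genes, *nop10*, *emg1*, *pno1*, *nob1*, *bysl*, *gnl3l* and *ddx21*, none passed the test at this time. In whole ventricle, a change in the number of cells of a type and a change in the RNA per cell cannot be told apart.

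The counts fell over the next days. At 1 dpi, 33 genes were higher and 1 lower, with 22% of all features higher and 16.5% lower, and the median of the 49 genes was 0.59. At 3 dpi, 18 genes were higher and 2 lower, with 20.7% and 14.9% of all features, and the median was 0.24. After quantile normalization the counts at 3 dpi were 13 higher and 6 lower, with 6525 and 7014 of 35883 features. This lowers the share of higher calls among the 49 genes by more than 10 percentage points. Over the 11682 tested genes with a symbol of their own, 22.8%, 29.2% and 29.6% were higher at 4 hpi, 1 dpi and 3 dpi. The 18 genes at 3 dpi are 36.7% of the 49, closer to this share than to that over all features. The share of named genes after quantile normalization was not counted.

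At 7 dpi, 5 genes were higher and 2 lower, with 14.5% and 8.02% of all features, and the median of the 49 genes was −0.02. At 14 dpi, 6 genes were higher and 1 lower, with 9.39% and 4.57% of all features, and the median was 0.22. Over the 11682 named genes, 21% were higher at 7 dpi and 12.7% at 14 dpi. The 5 genes at 7 dpi are 10.2% of the 49, below both shares. The 6 genes at 14 dpi are 12.2%, near both. At 90 dpi no gene was higher and 10 were lower in limma, with 11.2% of all features higher and 7.68% lower, and the median was −0.19. At an unadjusted p under 0.05 in limma, 1 gene was higher and 18 were lower at 90 dpi. The share over all features at this unadjusted threshold was not counted.

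The counts at the late times rest on few arrays. Under quantile normalization, 7 dpi had 2 genes higher with 4 lower, and 14 dpi had 4 higher with 2 lower. Of 35883 features, 4752 were then higher and 3642 lower at 7 dpi, and 2916 higher and 2324 lower at 14 dpi. The 5 genes higher at 7 dpi became 2 without control replicate 3 or 7 dpi replicate 2 and 3 without control replicate 1, control replicate 2 or 7 dpi replicate 1, and the 6 at 14 dpi became 3 without 14 dpi replicate 3 and 8 without 14 dpi replicate 2. The 41 genes higher at 4 hpi became 37 to 41 when any 1 array was left out, and the 33 at 1 dpi became 30 to 33.

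The filter on low signals bears on these counts. *rrp9* passed it only through the 4 hpi arrays, so that its difference at that time follows in part from the filter. In all, 8 of the 49 genes had no control array over 6 (*rrp9*, *tbl3*, *wdr3*, *bms1*, *ddx10*, *tsr1*, *pes* and *rrs1*). They passed the filter only through arrays of injured ventricles, and all 8 are among the genes called higher at 4 hpi. Their differences from control may thus also follow in part from the filter. Without any filter, 4 hpi had 43 of the 51 genes higher with 1 lower, 1 dpi had 35 with 1, 3 dpi had 19 with 2, and 90 dpi had none with 9. Of all 75212 features, 8826 were then higher and 7962 lower at 4 hpi, and 9123 and 11380 at 1 dpi. At 3 dpi 8882 features were higher and 10933 lower, and at 90 dpi 4149 and 3230.

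**Figure D2:**
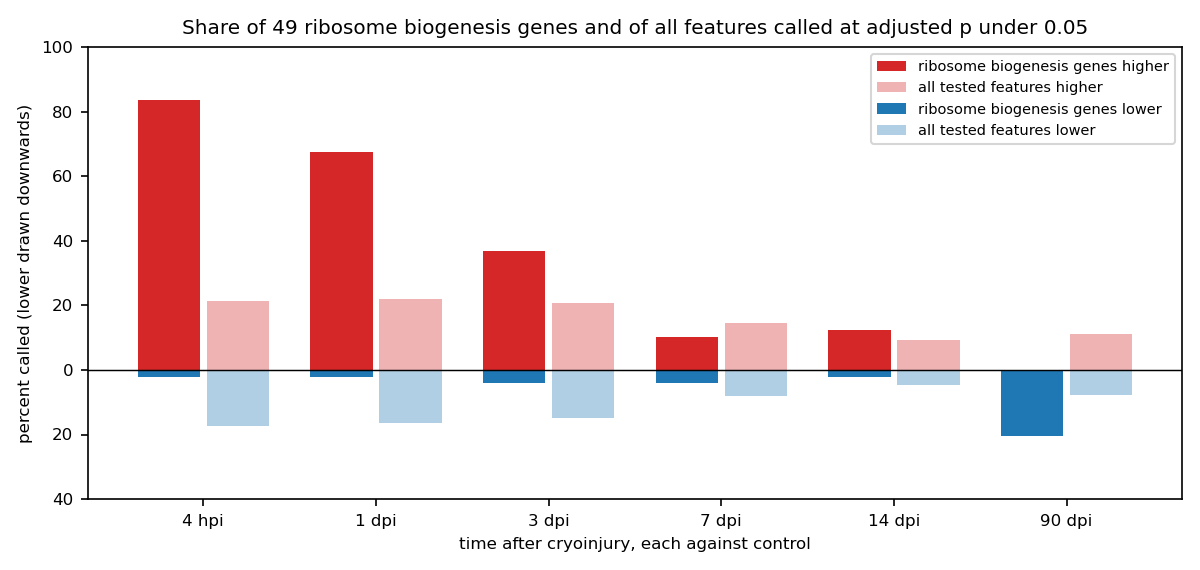
Percent of the 49 tested genes (dark bars) and of all 35783 tested features (pale bars) that were higher (upwards) or lower (downwards) than control at an adjusted p under 0.05, by time after injury. The dark bars upwards stand well above the pale ones at 4 hpi, 1 dpi and 3 dpi. They are below the pale ones at 7 dpi, a little above at 14 dpi, and absent at 90 dpi. The shares over named genes are not drawn.

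Among the nucleolar scaffold proteins and chaperones, each of the 3 genes was higher at both 4 hpi and 1 dpi. Over all features 21.3% and 22% were higher at these times. *npm1a* encodes nucleophosmin, a chaperone of the outer nucleolus. Its log2 signal was 8.31, 8.52 and 8.48 in the control pools, 9.71, 9.32 and 9.64 at 4 hpi, and 9.28, 9.26 and 9.48 at 1 dpi. It was 9.09, 8.98 and 8.92 at 3 dpi, 8.77, 8.99 and 8.74 at 7 dpi, 9.19, 8.79 and 9.27 at 14 dpi, while the 90 dpi pools gave 8.54, 8.12 and 8.29. Every pool from 4 hpi to 14 dpi was above every control pool, and the 90 dpi pools overlapped with the controls. The log2 fold change was 1.12 ± 0.15 at 4 hpi (2.17-fold, adjusted p = 1.38e-05 in limma), 0.56 ± 0.15 at 3 dpi (adjusted p = 0.00624), 0.40 ± 0.15 at 7 dpi (adjusted p = 0.0607) and 0.65 ± 0.15 at 14 dpi (adjusted p = 0.00717).

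*ncl*, which encodes the rRNA-binding protein nucleolin, was 8.18, 8.32 and 8.28 in control and 9.05, 8.99 and 8.83 at 4 hpi, and rose by 0.70 ± 0.10 (adjusted p = 4.63e-05 in limma). It was 8.23, 8.07 and 8.19 at 90 dpi, within or just under the control values. *nolc1* encodes a chaperone that shuttles snoRNPs to the nucleolus, and it rose by 0.72 ± 0.19 at 4 hpi (adjusted p = 0.00713). At 90 dpi its pools were far apart, at 7.73, 6.87 and 7.34, and the difference of −0.52 ± 0.19 from control did not pass the test (adjusted p = 0.0719).

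For RNA polymerase I itself, *polr1a* encodes the largest subunit. Its log2 signal was 6.96, 7.05 and 6.93 in control and 7.72, 7.84 and 7.77 at 4 hpi, and went back to 7.02, 7.31 and 7.10 at 1 dpi. The 4 hpi pools were above all other pools of the series, while the 1 dpi pools overlapped with control. The rise at 4 hpi was 0.80 ± 0.11 (adjusted p = 2.79e-05 in limma), the difference at 1 dpi was 0.16 ± 0.11 (adjusted p = 0.267), and the drop from 4 hpi to 1 dpi was itself past the test at −0.64 ± 0.11 (adjusted p = 0.000247). *polr1b*, the gene of the second largest subunit, stayed under the filter with 4.83, 4.88 and 4.79 in control and 5.96, 5.71 and 5.45 at 4 hpi. In the fit without a filter its difference was 0.88 ± 0.14 at 4 hpi (adjusted p = 0.000229 in limma) and 0.70 ± 0.14 at 1 dpi (adjusted p = 0.0015). *mybbp1a*, which encodes a nucleolar Myb-binding protein with a part in rRNA transcription and processing, rose by 1.11 ± 0.13 at 4 hpi and by 0.78 ± 0.13 at 1 dpi (adjusted p = 5.46e-06 and 0.000154).

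All 4 genes of the box C/D snoRNP were higher at 4 hpi, when 21.3% of all features were higher. The count includes *rrp9*, which passed the filter only through the 4 hpi arrays, so that its call follows in part from the filter. *fbl* encodes fibrillarin, the enzyme that methylates rRNA. Its log2 signal was 8.11, 8.27 and 8.38 in control, 9.21, 9.25 and 9.30 at 4 hpi, 8.86, 9.06 and 9.11 at 1 dpi, while the 3 dpi pools gave 8.68, 8.76 and 8.65. It was 8.39, 8.37 and 8.36 at 7 dpi, 8.58, 8.42 and 8.41 at 14 dpi, while the 90 dpi pools gave 7.79, 7.32 and 7.43. The pools of 4 hpi, 1 dpi and 3 dpi were all above the controls, and those of 90 dpi were all below every other pool of the series. *fbl* rose by 1.00 ± 0.12 at 4 hpi (adjusted p = 5.23e-06 in limma), by 0.76 ± 0.12 at 1 dpi and by 0.45 ± 0.12 at 3 dpi (adjusted p = 7.02e-05 and 0.00667). At 90 dpi it fell by 0.74 ± 0.12 (1.67-fold, adjusted p = 0.000832), the lowest log2 fold change of the 49 genes at that time.

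*nop56* and *nop58* encode the scaffold pair of the same particle. *nop56* rose by 0.61 ± 0.14 at 4 hpi and by 0.51 ± 0.14 at 1 dpi (adjusted p = 0.00196 and 0.00709 in limma). *nop58* rose by 0.72 ± 0.21 at 4 hpi (adjusted p = 0.0106), and its difference at 1 dpi of 0.40 ± 0.21 did not pass (adjusted p = 0.137). At 90 dpi *nop58* was 6.46, 5.70 and 5.83 against 6.65, 6.54 and 6.88 in control, and fell by 0.69 ± 0.21 (adjusted p = 0.0278). That call was kept in 2 of the 6 fits with an array left out (largest adjusted p = 0.137 in limma). *rrp9* encodes a protein particular to the snoRNP that guides the early cuts. It was 5.12, 4.85 and 4.88 in control and 6.42, 6.31 and 6.10 at 4 hpi, a difference of 1.33 ± 0.21 (adjusted p = 9.13e-05) from a control level below the highest array median.

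In the box H/ACA snoRNP 2 of the 3 tested genes were higher at 4 hpi, when 21.3% of all features were higher. *dkc1* encodes dyskerin, the pseudouridine synthase. It was 6.62, 6.92 and 6.93 in control, 8.01, 7.77 and 7.83 at 4 hpi, and 6.54, 5.99 and 5.94 at 90 dpi. The 4 hpi pools were all above and the 90 dpi pools all below the controls, and *dkc1* rose by 1.05 ± 0.18 at 4 hpi and fell by 0.67 ± 0.18 at 90 dpi (adjusted p = 0.000179 and 0.0149 in limma). *nhp2*, a core protein gene of the particle, was 6.89, 6.97 and 6.85 in control and 7.77, 7.89 and 7.69 at 4 hpi. It stayed up longer, with rises of 0.89 ± 0.12 at 4 hpi, 0.68 ± 0.12 at 3 dpi and 0.41 ± 0.12 at 7 dpi (adjusted p = 1.92e-05, 0.000229 and 0.0195), and it fell by 0.42 ± 0.12 at 90 dpi (adjusted p = 0.0211). The call at 7 dpi was lost under quantile normalization (adjusted p = 0.0618) and without control replicate 1 or 3 or 7 dpi replicate 2 or 3. With an array left out, the call at 90 dpi was kept in 4 of 6 fits for *nhp2* and 2 of 6 for *dkc1*. The largest adjusted p of these fits was 0.102 for *nhp2* and 0.0747 for *dkc1* (limma).

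*gar1*, under the filter, was 4.93, 4.95 and 4.90 in control and 5.82, 5.76 and 5.83 at 4 hpi, a difference of 0.88 ± 0.15 in the fit without a filter (adjusted p = 0.00037 in limma). *nop10*, the gene of the smallest core protein, passed no test against control. Its log2 signal was 9.25, 9.42 and 9.19 in control and 9.75, 9.29 and 9.38 at 4 hpi, with overlap, and its differences from control lay between −0.14 and 0.22 at all 6 times.

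**Figure D3:**
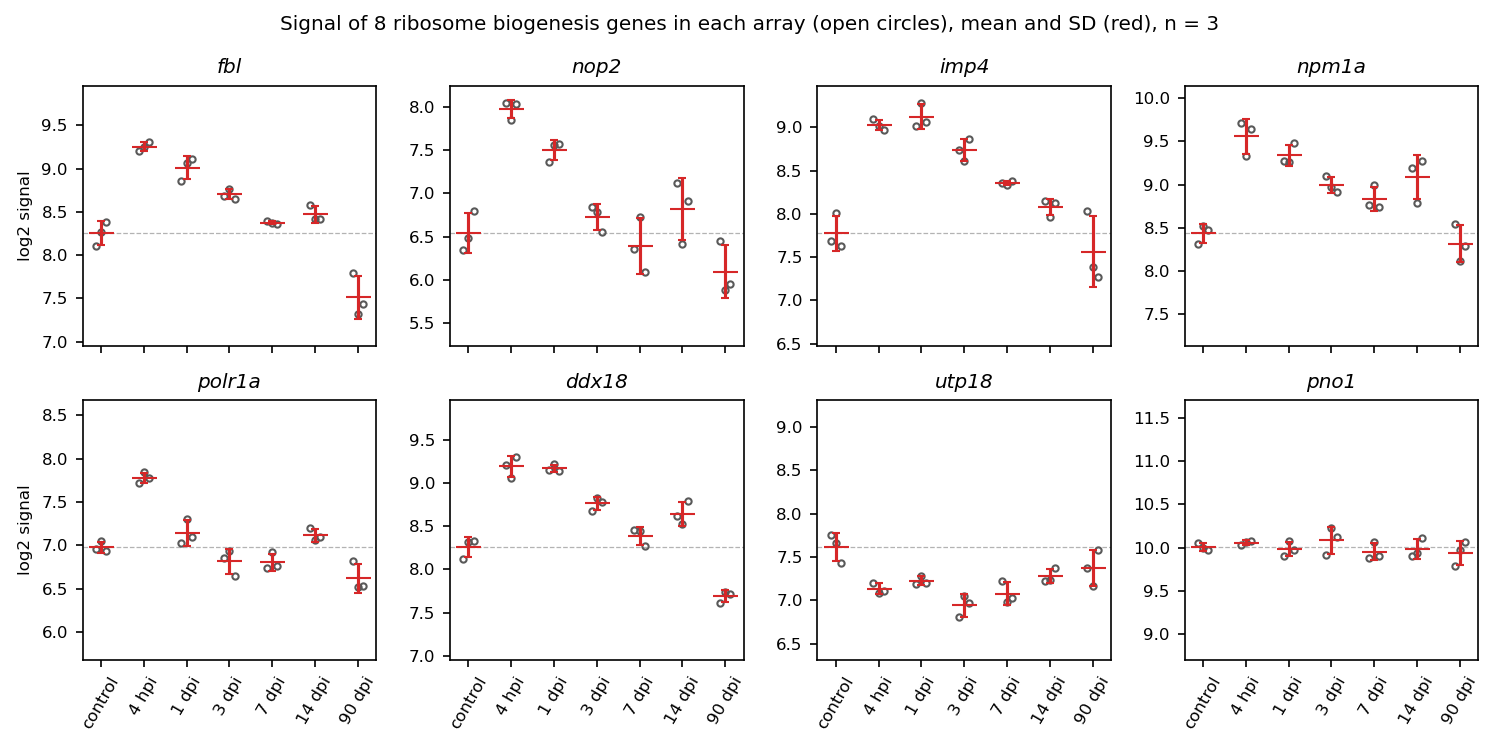
Log2 signal of 8 ribosome biogenesis genes in each pool (open circles) with the mean and SD of 3 pools (red), for control and 6 times after injury; all panels span 3 log2 units and the dashed line marks the control mean. *fbl*, *nop2*, *imp4*, *npm1a*, *polr1a* and *ddx18* are above control at 4 hpi, *utp18* is below control from 4 hpi to 7 dpi, and *pno1* stays near 10.

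The small subunit processome had 20 listed genes, of which 18 were tested. In this role 4 hpi had 16 genes higher with 1 lower and 1 dpi had 15 with 1, with median log2 fold changes of 0.68 and 0.56. At 3 dpi 8 were higher and 1 lower. Over all features 21.3%, 22% and 20.7% were higher at 4 hpi, 1 dpi and 3 dpi, and 17.5%, 16.5% and 14.9% were lower.

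The 5 genes of the subcomplex that first binds the nascent precursor (*heatr1*, *utp4*, *utp15*, *wdr43* and *wdr75*) were all higher at 4 hpi and at 1 dpi. *utp15* was 6.63, 6.44 and 6.90 in control, 7.72, 7.52 and 7.48 at 4 hpi and 7.47, 7.64 and 7.59 at 1 dpi. All 6 injured pools were above all controls, with rises of 0.92 ± 0.12 and 0.91 ± 0.12 (adjusted p = 1.63e-05 and 1.38e-05 in limma). *utp4* had the smallest rises of the 5, by 0.52 ± 0.16 at 4 hpi and 0.44 ± 0.16 at 1 dpi (adjusted p = 0.0165 and 0.0385). Both of its calls were lost under quantile normalization, the first also without control replicate 1 and the second also without control replicate 1 or 2 or 1 dpi replicate 2 or 3 (largest adjusted p = 0.179). The 90 dpi pools of *heatr1* were far apart, at 6.75, 5.46 and 6.57 against 6.45, 6.39 and 6.50 in control. A second array row of *heatr1*, with a lower mean, rose by 1.38 ± 0.16 at 4 hpi (adjusted p = 5.17e-06), where the main row rose by 1.05 ± 0.28 (adjusted p = 0.00641). The rows differed at 3 dpi, with 0.74 ± 0.16 on the second (adjusted p = 0.00167) and 0.33 ± 0.28 on the main row (adjusted p = 0.39).

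The 3 measured genes of a further subcomplex went different ways. *wdr3* was 5.65, 5.47 and 5.66 in control, 6.66, 6.64 and 6.48 at 4 hpi and 6.78, 6.82 and 6.90 at 1 dpi. It then was 6.40, 6.45 and 6.42 at 3 dpi, 6.35, 6.05 and 6.16 at 7 dpi, while 14 dpi gave 6.36, 6.10 and 6.37. Every pool of these 5 times was above every control pool, and *wdr3* was called higher at all 5. Its log2 fold change was 1.24 ± 0.11 at 1 dpi (adjusted p = 2.25e-07 in limma), 0.59 ± 0.11 at 7 dpi (adjusted p = 0.00133) and 0.68 ± 0.11 at 14 dpi (adjusted p = 0.000875). *tbl3* rose by 0.49 ± 0.15 at 4 hpi and 0.70 ± 0.15 at 1 dpi (adjusted p = 0.0162 and 0.00133), and the first of these calls was lost without control replicate 2 or 4 hpi replicate 1 or 2.

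*utp18* was opposite in sign. Its log2 signal was 7.75, 7.66 and 7.43 in control, 7.21, 7.08 and 7.11 at 4 hpi, 7.19, 7.28 and 7.21 at 1 dpi, while the 3 dpi pools gave 6.80, 7.06 and 6.96. It was 7.23, 6.98 and 7.03 at 7 dpi, 7.23, 7.24 and 7.37 at 14 dpi, while 90 dpi gave 7.38, 7.16 and 7.58. All pools up to 14 dpi were below all controls. The drop was 0.48 ± 0.12 at 4 hpi, and *utp18* fell by 0.39 ± 0.12 at 1 dpi, by 0.67 ± 0.12 at 3 dpi and by 0.53 ± 0.12 at 7 dpi (adjusted p = 0.0165, 0.000288 and 0.00413 in limma). At 14 and 90 dpi the differences of −0.34 and −0.24 did not pass (adjusted p = 0.0736 and 0.172). The call at 1 dpi was lost without control replicate 1 or control replicate 2.

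*imp4* encodes a protein that helps pair the precursor with its guide snoRNA. It was 7.69, 8.01 and 7.63 in control, 9.09, 9.01 and 8.97 at 4 hpi, 9.01, 9.28 and 9.07 at 1 dpi and 8.74, 8.61 and 8.86 at 3 dpi. At 7 dpi it was 8.36, 8.33 and 8.38, still above all controls, and at 90 dpi 8.03, 7.39 and 7.27. Its rise of 1.34 ± 0.16 was the largest of the 49 genes at 1 dpi (2.54-fold, adjusted p = 3.69e-06 in limma), and it rose by 0.96 ± 0.16 at 3 dpi and 0.58 ± 0.16 at 7 dpi (adjusted p = 0.000141 and 0.0139), the last of which was lost without control replicate 3. *mphosph10*, whose product works in the same complex, rose by 0.46 ± 0.11 at 4 hpi and 0.34 ± 0.11 at 1 dpi (adjusted p = 0.00366 and 0.0223). Its call at 1 dpi was lost under quantile normalization and without control replicate 2 or 3 or 1 dpi replicate 1 or 3.

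The GTPase gene *bms1* and *rcl1*, whose product binds the Bms1 protein, were both higher at 4 hpi and then parted. *bms1* was 5.29, 5.27 and 5.45 in control, 6.64, 6.44 and 6.35 at 4 hpi and 6.28, 6.48 and 6.49 at 1 dpi. It rose by 1.14 ± 0.12 and 1.08 ± 0.12 at these times, and by 0.56 ± 0.12 at 14 dpi (adjusted p = 1.95e-06, 2.18e-06 and 0.00557 in limma). *rcl1* was 7.74, 7.06 and 7.14 in control, 7.89, 8.27 and 7.95 at 4 hpi and 7.40, 7.40 and 7.30 at 1 dpi. Its rise of 0.72 ± 0.17 at 4 hpi (adjusted p = 0.0028) was followed by a drop of 0.67 ± 0.17 from 4 hpi to 1 dpi (adjusted p = 0.00506).

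*nat10*, which encodes the acetyltransferase of small subunit rRNA, rose by 1.13 ± 0.15 at 4 hpi, 1.03 ± 0.15 at 1 dpi and 0.60 ± 0.15 at 3 dpi (adjusted p = 1.73e-05, 3.65e-05 and 0.00465 in limma). *emg1*, which encodes a methyltransferase for a modified uridine of the same rRNA, passed no test, with 6.40, 6.50 and 6.11 in control and 6.29, 6.87 and 6.70 at 4 hpi. *noc4l* was 7.73, 7.37 and 7.80 in control, 8.17, 8.08 and 8.06 at 4 hpi and 8.55, 8.49 and 8.50 at 1 dpi. It was the only gene of the 49 called higher at 1 dpi than at 4 hpi, by 0.41 ± 0.14 (adjusted p = 0.0366 in limma). That call was lost when any of the 6 arrays was left out. By group means, 7 of the 49 genes were higher at 1 dpi than at 4 hpi. The other rises at 4 hpi in this role were 0.34 ± 0.12 for *dcaf13*, 0.63 ± 0.13 for *utp3* and 0.66 ± 0.10 for the RNA helicase gene *ddx10* (adjusted p = 0.0315, 0.000776 and 7.3e-05). At 4 hpi the calls of *dcaf13* and *noc4l* were lost under quantile normalization, that of *dcaf13* also without control replicate 1 or 2 or 4 hpi replicate 1 or 3 and that of *noc4l* also without control replicate 2 or 4 hpi replicate 1.

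The 5 genes of late small subunit maturation, the steps that end with the last cut of its rRNA in the cytoplasm, had the lowest medians of the 7 roles from 4 hpi to 14 dpi, with 0.38 at 4 hpi and −0.02 at 1 dpi. *nob1* encodes the nuclease of that last cut and *pno1* its partner, and neither passed a test at any time. *pno1* was 10.06, 9.99 and 9.97 in control, 10.03, 10.07 and 10.08 at 4 hpi and 9.91, 10.08 and 9.97 at 1 dpi, and its differences from control stayed between −0.06 and 0.08. *nob1* was 8.07, 7.84 and 8.04 in control and 8.45, 8.10 and 8.55 at 4 hpi, a difference of 0.38 ± 0.19 (adjusted p = 0.128 in limma).

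*tsr1* and *rrp12* were the 2 genes of this role that were higher at 4 hpi, by 0.80 ± 0.18 and 0.40 ± 0.09 (adjusted p = 0.00181 and 0.00251 in limma). Over all features 21.3% were higher at this time. *tsr1* was 5.34, 5.62 and 5.42 in control and 6.39, 6.07 and 6.31 at 4 hpi, without overlap. *rrp12*, which encodes a factor for export of the subunits, was lower at 90 dpi, by −0.34 ± 0.09 (adjusted p = 0.018). That call was kept in 3 of the 6 fits with an array left out (largest adjusted p = 0.0717 in limma). *bysl* was 7.07, 7.31 and 7.05 in control, 7.49, 7.40 and 7.28 at 4 hpi, 6.71, 6.51 and 6.73 at 7 dpi, while 14 dpi gave 6.63, 6.73 and 6.78. The 7 and 14 dpi pools were all below the controls, with differences of −0.50 ± 0.12 and −0.43 ± 0.12 (adjusted p = 0.005 and 0.0185), and the second of these calls was lost without control replicate 2 or 14 dpi replicate 1.

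Of the 17 listed genes of the large subunit 14 were tested, and 12 were higher at 4 hpi, 8 at 1 dpi and 6 at 3 dpi. At 3 dpi 1 gene of this role was lower. Over all features 21.3%, 22% and 20.7% were higher at these times, and 14.9% were lower at 3 dpi. *nop2* encodes a methyltransferase of large subunit rRNA. It was 6.35, 6.48 and 6.79 in control, 8.04, 7.85 and 8.03 at 4 hpi, 7.37, 7.56 and 7.57 at 1 dpi, while 3 dpi gave 6.84, 6.78 and 6.56. The 4 hpi pools were above the 1 dpi pools and these above the controls, while the 3 dpi pools overlapped with control. Its rise of 1.43 ± 0.20 at 4 hpi (2.70-fold) became 0.96 ± 0.20 at 1 dpi and 0.19 ± 0.20 at 3 dpi (adjusted p = 0.000837 and 0.495 in limma), and the drop from 1 to 3 dpi was −0.77 ± 0.20 (adjusted p = 0.0307).

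*bop1*, *pes* and *wdr12* encode a trimer that acts on the large subunit precursor. *bop1* was 6.24, 6.31 and 6.26 in control and 7.84, 7.32 and 7.37 at 4 hpi, and rose by 1.24 ± 0.15 (adjusted p = 5.8e-06 in limma). *wdr12* was 6.53, 6.56 and 6.49 in control and 7.30, 7.63 and 7.47 at 4 hpi, and rose by 0.94 ± 0.14 (adjusted p = 4.63e-05). *pes* was 5.69, 5.89 and 5.97 in control and 6.19, 6.34 and 6.17 at 4 hpi, and rose by 0.38 ± 0.12 (adjusted p = 0.0155), a call lost without control replicate 1 or 4 hpi replicate 2. At 4 hpi the pools of all 3 genes were above their controls. At 1 dpi *bop1* and *wdr12* were still higher by 0.96 ± 0.15 and 0.67 ± 0.14 (adjusted p = 6.1e-05 and 0.000876), and the difference of *pes* was 0.09 ± 0.12 (adjusted p = 0.592).

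*noc2l* and *noc3l*, whose products travel with the large subunit precursor, rose by 1.23 ± 0.17 and 1.06 ± 0.14 at 4 hpi (adjusted p = 2.78e-05 and 1.18e-05 in limma). *noc3l* was 6.08, 6.08 and 6.14 in control and 7.00, 7.22 and 7.26 at 1 dpi, where it had the largest rise of this role, 1.06 ± 0.14 (adjusted p = 9.3e-06). Both were still higher at 3 dpi, by 0.72 ± 0.17 and 0.60 ± 0.14 (adjusted p = 0.00326 and 0.00238). *ddx18*, an RNA helicase gene, was 8.13, 8.32 and 8.33 in control, 9.21, 9.06 and 9.31 at 4 hpi, 8.61, 8.52 and 8.79 at 14 dpi and 7.62, 7.75 and 7.72 at 90 dpi. It rose by 0.93 ± 0.10 at 4 hpi and 0.38 ± 0.10 at 14 dpi and fell by 0.56 ± 0.10 at 90 dpi (adjusted p = 2.86e-06, 0.02 and 0.00195). Its call at 14 dpi was lost without control replicate 1 or 14 dpi replicate 3.

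*gnl3*, which encodes the nucleolar GTPase nucleostemin, and its paralogue *gnl3l* differed. *gnl3* was 7.63, 7.79 and 7.92 in control and 8.93, 8.73 and 8.97 at 4 hpi, and rose 2.14-fold (adjusted p = 9.79e-05 in limma). *gnl3l* was 7.13, 7.07 and 7.16 in control and 7.14, 7.42 and 7.39 at 4 hpi, with a difference of 0.20 ± 0.12 (adjusted p = 0.2). At 3 dpi *gnl3* was higher by 0.49 ± 0.17 and *gnl3l* was lower by −0.49 ± 0.12 (adjusted p = 0.0361 and 0.00361). The call of *gnl3* at 3 dpi was kept in 1 of the 6 fits with an array left out (largest adjusted p = 0.122), that without control replicate 3, and was lost under quantile normalization. *ddx21*, a helicase gene whose product also acts with RNA polymerase I, passed no test against control, with 6.93, 6.83 and 6.68 in control and 7.13, 7.03 and 6.93 at 4 hpi.

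The remaining large subunit genes *ppan*, *rrp1*, *rrs1* and *nop16* were higher at 4 hpi by 0.86 ± 0.16, 0.42 ± 0.15, 0.82 ± 0.18 and 0.90 ± 0.18 (adjusted p = 0.000329, 0.0344, 0.00154 and 0.000687 in limma). The call of *rrp1* was lost under quantile normalization and without control replicate 1 or 2 or 4 hpi replicate 1 or 3. Of the genes listed on rows with more than 1 symbol, the row that carries *nop14* under 2 spellings was 7.68 on average in control and 7.55 at 4 hpi, and passed no test against control (adjusted p = 0.442 at 4 hpi). The row shared by *imp3* and *sec22ba* had a difference of −0.20 ± 0.11 at 4 hpi (adjusted p = 0.162). Such a row cannot tell its genes apart.

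The levels were also compared between successive times. From 4 hpi to 1 dpi 1 gene was called higher (*noc4l*, above) and 8 lower, with 19.4% of all features higher and 15% lower. The 8 genes are 16.3% of the 49, near the share over all features. The 8 were *rcl1*, *polr1a*, *ppan*, *ddx21*, *wdr75*, *bysl*, *rrp12* and *ddx10*, with log2 fold changes from −0.67 to −0.29. The count of 8 became 3 without 4 hpi replicate 1 and 4 without 1 dpi replicate 1.

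From 1 to 3 dpi no gene was called higher. Called lower were 6 genes (*nop2*, *ppan*, *utp15*, *wdr43*, *gnl3l* and *ddx18*), with 2.72% of all features higher and 1.27% lower. The labels do not say that the replicate numbers pair these groups, and they were taken to do so from weak correlations (0.107 to 0.146). With the number as a block over all 21 arrays, and not only over these groups, the count was 4. Here *ppan* and *gnl3l* no longer passed (adjusted p = 0.0511 and 0.0533 in limma). The count was 0 without 1 dpi replicate 2 or 3 and 1 without 3 dpi replicate 1 or 3.

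From 3 to 7 dpi no gene was called higher and 3 were called lower, with 2.11% of all features higher and 4.86% lower. The 3 genes are 6.1% of the 49, also near the share over all features. These were *bms1*, *utp3* and *ddx18*, by −0.44 ± 0.12, −0.45 ± 0.13 and −0.37 ± 0.10 (adjusted p = 0.0368, 0.0384 and 0.0374 in limma), and none was called after quantile normalization. The count was 0 without 3 dpi replicate 1 or 3 or 7 dpi replicate 1 or 3, and 1 without 3 dpi replicate 2. From 7 to 14 dpi no gene passed in limma, with 0.813% of all features higher and 1.57% lower. At an unadjusted p under 0.05, for which no share over all features was counted, 15 genes were higher and 2 lower. The median log2 fold change over this step was 0.16.

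From 14 to 90 dpi no gene was called higher and 21 of the 49 were called lower, with 4.29% of all features higher and 7.03% lower. The median of the 49 genes was −0.43. *fbl* fell by 0.96 ± 0.12 and *ddx18* by 0.95 ± 0.10 (adjusted p = 0.000318 and 0.000102 in limma). *gnl3* fell by 0.95 ± 0.17, *dkc1* by 0.94 ± 0.18 and *nop58* by 0.80 ± 0.21 (adjusted p = 0.00367, 0.00425 and 0.0215). *npm1a* fell by 0.77 ± 0.15 (adjusted p = 0.00445). The count was 28 without 90 dpi replicate 1 and 11 without 90 dpi replicate 2 or 14 dpi replicate 1, and it was 12 without 90 dpi replicate 3 or 14 dpi replicate 3 and 20 without 14 dpi replicate 2. When only these 6 arrays were fitted no gene passed, and 11 of 31337 features did.

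At 90 dpi the 10 genes below control were *fbl*, *nop58*, *dkc1*, *ddx18*, *gnl3*, *rrp1*, *wdr43*, *nhp2*, *polr1a* and *rrp12*, with log2 fold changes from −0.74 to −0.34. By role, 2 of 4 box C/D genes, 2 of 3 tested box H/ACA genes and 3 of 14 large subunit genes were lower. So were 1 of 2 tested RNA polymerase I genes, 1 of 5 late small subunit genes and 1 of 18 genes of the small subunit processome. Of the scaffold genes 0 of 3 were lower. Over all features 7.68% were lower at this time, and differences between roles were not tested. *wdr43* was 9.19, 9.16 and 9.04 in control and 8.93, 8.56 and 8.59 at 90 dpi, and *polr1a* was 6.82, 6.52 and 6.52 at 90 dpi, with all pools below control. The highest log2 fold change was that of *utp3*, 0.36 ± 0.13 (adjusted p = 0.0537 in limma).

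The count of 10 moved with single pools. It was 18 without 90 dpi replicate 1, 2 without 90 dpi replicate 2 and 4 without 90 dpi replicate 3, and 5, 4 and 5 without control replicates 1, 2 and 3. With only the 6 arrays compared it was 2, and 755 of 31452 features were lower. *fbl* and *ddx18* were the 2 genes called in every one of these fits, with a largest adjusted p among the fits with an array left out of 0.00679 for *fbl* and 0.0114 for *ddx18* (limma).

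**Figure D4:**
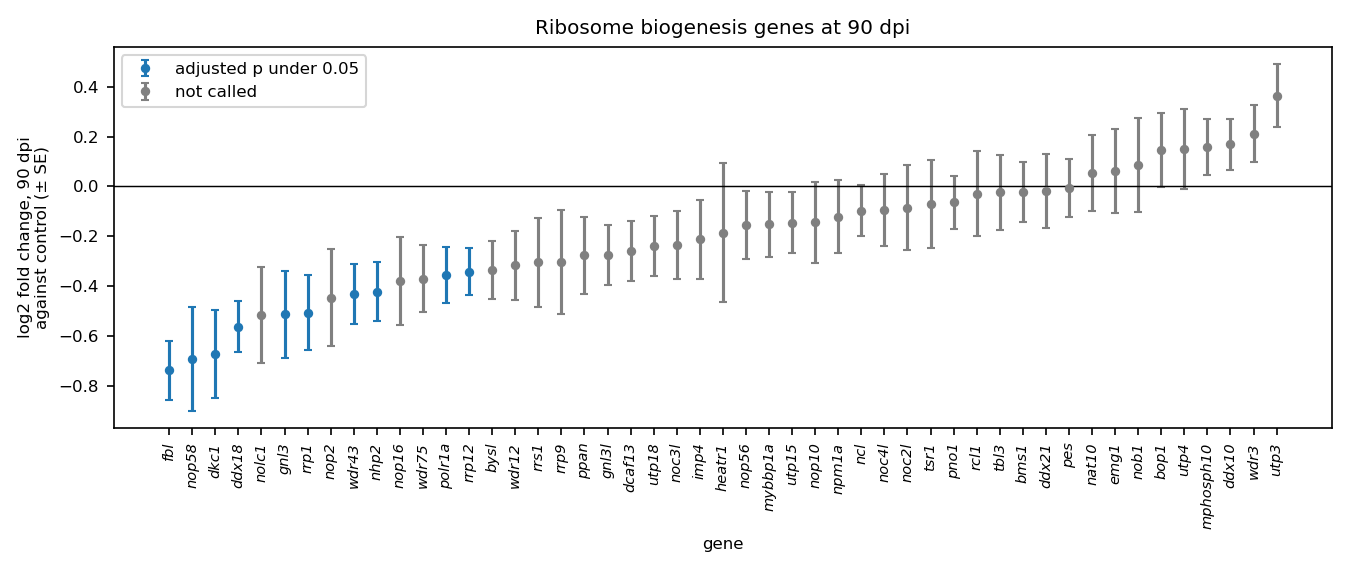
Log2 fold change at 90 dpi against control of the 49 tested genes, sorted, with the SE of limma (n = 3 pools per group); blue marks an adjusted p under 0.05. The 10 blue points lie between −0.74 for *fbl* and −0.34 for *rrp12*, and no gene above 0 is called.

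Over the 21 arrays most of the genes were alike in profile. The Pearson correlation of a gene with the mean of the other tested genes had a median of 0.876 and was over 0.8 for 32 of the 49, and the arrays share their groups, so this describes the time course as much as the genes. The correlation was under 0.5 for 5 genes (*utp18*, *emg1*, *pno1*, *nob1* and *ddx21*) and lowest, at −0.315, for *utp18*. It was not computed within other gene sets. By group means, 40 of the 49 genes were highest at 4 hpi, 6 at 1 dpi (*nop10*, *heatr1*, *tbl3*, *wdr3*, *noc4l* and *imp4*), 2 at 3 dpi (*emg1* and *pno1*) and *utp18* in control, and 33 were lowest at 90 dpi. Between 4 hpi and 1 dpi 40 of the 49 genes were not called, so that the order of these times is not settled for them. Of the 8 genes called lower at 1 dpi, 2 kept the call in every fit with an array left out. The call of *noc4l*, the 1 gene higher, was lost in each such fit.

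Among 11349 named genes outside the lists used here, the 10 with profiles most like the mean of the 49 had correlations of 0.951 to 0.975 over the 21 arrays. The closest was *pum3*, and *ripk2*, *mbd2*, *pprc1*, *hgh1*, *b4galt5*, *pdcd11*, *nsun5*, *qtrt2* and *si:dkey-251i10.3* followed. These genes were picked by this likeness. Their rises at 4 hpi, such as 1.31 for *pdcd11* and 1.29 for *nsun5*, therefore follow in part from the choice.

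Other genes of the same pathway were read from lists outside the 56, with 135 listed and 96 tested. The number higher was 67 at 4 hpi, then 60, 36, 15 and 8 at 1, 3, 7 and 14 dpi, and 6 at 90 dpi. Over all features the shares higher were 21.3%, 22%, 20.7%, 14.5%, 9.39% and 11.2% at these 6 times, so that the counts at 7 and 14 dpi lie near them. The number lower was 3 at 4 hpi, then 3, 4, 3 and 1, and 10 at 90 dpi, the last near the 7.68% of all features. In the other genes of the small subunit processome, 24 of 29 were higher at 4 hpi, among them *utp25* by 1.40 ± 0.16 and *abt1* by 1.25 ± 0.17 (adjusted p = 3.17e-06 and 1.76e-05 in limma). In the other genes of the large subunit 27 of 38 were higher, among them *nip7* by 1.40 ± 0.19 and *ftsj3* by 1.25 ± 0.14 (adjusted p = 2.51e-05 and 4.02e-06). In the exosome and RNase MRP list, whose members trim RNA ends and cut the rRNA spacer, 9 of 18 were higher and *exosc1* was lower, by −0.35 ± 0.11 (adjusted p = 0.0149).

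The other genes of RNA polymerase I were divided. At 4 hpi 7 of 11 were higher and 2 lower, with 21.3% of all features higher and 17.5% lower. *polr1g* and *polr1c*, which encode subunits, rose by 1.38 ± 0.17 and 0.96 ± 0.14, and *taf1c*, of the promoter selectivity factor, rose 2.14-fold (adjusted p = 7.04e-06, 4.67e-05 and 0.000102 in limma). *tcof1*, which encodes treacle, a nucleolar partner of the polymerase, and *ubtfl*, named after the upstream binding factor, were lower by −0.66 ± 0.14 and −0.65 ± 0.14 (adjusted p = 0.0015 and 0.00179). *ubtf* itself had a difference of −0.12 ± 0.09 (adjusted p = 0.337).

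In the Myc and Max family, 8 of 15 listed genes were tested, and *myca* and *mycn* were under the filter. The mean of *myca* was 5.80 in control and 5.10 at 4 hpi, and that of *mycn* 4.96 and 4.46. These falls were not tested. *mych* rose by 1.65 ± 0.32 and *max*, which encodes the partner of Myc proteins on DNA, by 1.13 ± 0.14 at 4 hpi (adjusted p = 0.000578 and 7.45e-06 in limma). *mxd1*, whose product competes with Myc for Max, fell by 0.90 ± 0.16 (adjusted p = 0.000285). The difference of *mycb* at 4 hpi was 0.39 ± 0.20 (adjusted p = 0.149). At 1 dpi *mych* was higher by 1.05 ± 0.32 and *max* by 0.43 ± 0.14 (adjusted p = 0.0142 and 0.0193 in limma). *mxd3* was higher by 1.65 ± 0.26 (adjusted p = 8.01e-05), opposite in sign to *mxd1*. Its means of 4.65 in control and 4.97 at 4 hpi lie below the array medians, where fold changes are least certain. At 1 dpi *mxd1* and *mxi1*, of the same family, were lower by −0.82 ± 0.16 and −0.82 ± 0.20 (adjusted p = 0.000612 and 0.00295).

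The genes of the ribosomal proteins themselves were read from 2 separate lists. Of 65 tested cytosolic ribosomal protein genes 3 were higher and 6 lower at 4 hpi, with a median log2 fold change of 0.03. At 3 dpi 11 were higher and 4 lower, and at 90 dpi 1 was higher and 9 were lower with a median of −0.16. Over all features 21.3%, 20.7% and 11.2% were higher and 17.5%, 14.9% and 7.68% lower at these times. The cytosolic counts at 4 hpi and 3 dpi lie under these shares. Of 66 tested mitochondrial ribosomal protein genes 28 were lower at 4 hpi, 32 at 1 dpi and 29 at 90 dpi, against 1, 1 and 0 higher, with medians of −0.29, −0.37 and −0.32. At 4 hpi, 1 dpi and 90 dpi 17.5%, 16.5% and 7.68% of all features were lower, and 21.3%, 22% and 11.2% higher. At 7 dpi 5 of the mitochondrial ribosomal protein genes were lower and none higher, with 8.02% and 14.5% of all features, and their median was 0.04. These differences between lists were not tested.

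Lists of cell type markers were read in the same comparisons, and they differed in time course from each other. The cycling cell list had 12 tested genes, of which none was higher and 1 lower at 4 hpi in limma (none higher at an unadjusted p under 0.05 either), and all 12 were higher at 1 and 3 dpi. Its median log2 fold change was −0.08 at 4 hpi, when that of the 49 genes was 0.80, and 2.04 at 3 dpi, when that of the 49 genes was 0.24. Apart from *pcna* (8.66), the control means of this list lay between 4.11 for *top2a* and 5.16 for *mcm7*, under the filter. The rises of these genes may thus follow in part from the filter. Their means at 4 hpi were also under it, so that their differences at that time were read at low signal. Of 11 leukocyte markers 8 were higher at 4 hpi, 10 at 1 dpi and 11 at 3 dpi, and their summed linear level was 1322 to 1523 in control, 2292 to 3833 at 4 hpi, 10164 to 13313 at 1 dpi and 2504 to 3017 at 90 dpi. The summed level of 10 cardiomyocyte markers was 43470 to 45145 in control, 39961 to 42162 at 4 hpi, 35338 to 37309 at 1 dpi and 40648 to 42595 at 90 dpi. At 4 hpi 3 of these 10 markers were lower and none higher, with log2 fold changes from −1.56 to 0.75. At 1 dpi and again at 3 dpi 5 of them were lower and none higher. In the fibroblast and epicardium list 5 of 7 markers were lower at 4 hpi and 5 higher at 3 dpi. Of 5 tested endothelium markers 1 was higher and 1 lower at 4 hpi, and 3 were lower and none higher at 3 dpi. Of 4 tested erythrocyte markers 1 was higher and none lower at 4 hpi, and 1 was lower and none higher at 3 dpi. Over all features 21.3%, 22% and 20.7% were higher at 4 hpi, 1 dpi and 3 dpi, and 17.5%, 16.5% and 14.9% lower. The endothelium counts and the higher erythrocyte count at 4 hpi lie near these shares. No marker was at 0, and the part of any of these cell types in the levels of the ribosome biogenesis genes was not tested.

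**Figure D5:**
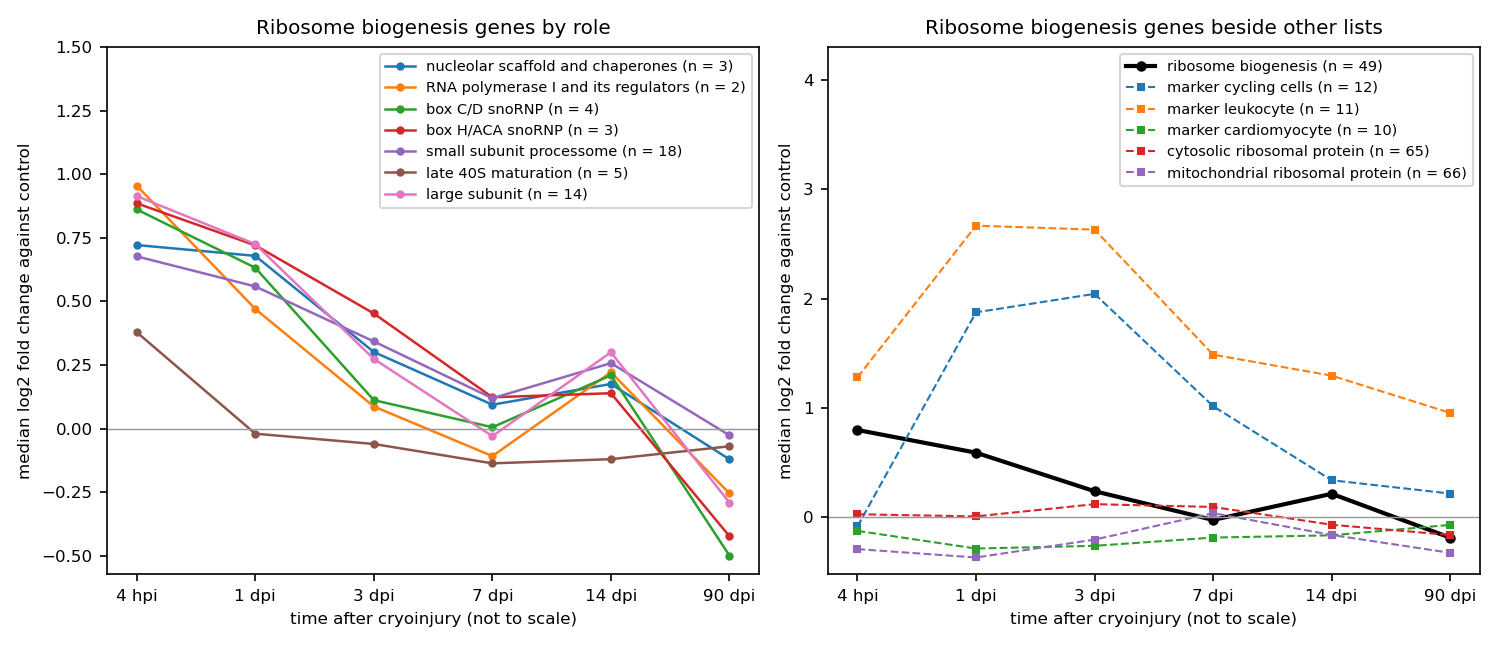
Median log2 fold change against control at 6 times, on the left for the tested ribosome biogenesis genes by role and on the right for all 49 beside other gene lists (n, genes tested; no error is drawn because genes are not replicates). All 7 role medians are highest at 4 hpi, and on the right the cycling and leukocyte medians are highest at 3 and 1 dpi.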

How the data were processed

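RNA from 21 pools of zebrafish ventricles was hybridised to Affymetrix Zebrafish Gene 1.0 ST arrays. The authors deposited 1 table of log2 signals for 75212 features, which they made in Partek by robust multi-array averaging (RMA) with a correction for GC content, so that a value is relative to the whole of its array. The genome build of the features is not given in the sources used here. Gene symbols came from an older platform annotation, in which 20806 features have 1 symbol, 855 several and 53551 none. Arrays carry no read depth, and their number limits the precision.

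One limma (3.58.1, R 4.3.3) model with 7 group means and 14 residual degrees of freedom gave 11 comparisons, 6 against control and 5 between successive times. Features with a log2 signal over 6 in at least 1 array were tested, p-values were adjusted by Benjamini-Hochberg over the 35783 features of a comparison, and calls were made at an adjusted p under 0.05. SE and fold changes are those of this model. The 6 comparisons with control share the same 3 control arrays. On simulated data for 1 dpi against control (35783 features, 200 changed), 65% of changes of 1 log2 unit and 94% of changes of 2 units were recovered. There were 12 wrong calls. The simulation changed far fewer features than the 7872 higher and 5916 lower that were called at 1 dpi. Its recovery therefore does not carry over to the real comparison, nor to changes under 1 log2 unit.

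The genes, roles and lists were chosen with earlier results of these data known. All listed genes could be named, and full values were given for most of the highest and lowest genes of each role, with others for contrast. No sequence or coordinate is printed, since no sequence table or genome was used here. The labels call the samples biological replicates. The study names 3 independent experiments, but the labels do not say that a number marks 1 experiment. Numbers were taken to pair 2 groups where all 3 correlations of same-numbered arrays, as deviations from the group means, were over 0.1. This held only for 3 dpi and 1 dpi (0.107 to 0.146). Correlations of arrays with different numbers were not compared with these, so that the pairing is not established. Alternatives were no filter, quantile normalization, an intensity trend with a robust prior, only the 6 arrays compared, the replicate number as a block, the mean of the rows of a gene, and each array left out in turn.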

Additional observations from a re-analysis of the deposited data

Results flagged for a closer look

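The differences between successive times were tested directly in limma. Of 49 ribosome biogenesis genes, 1 was higher and 8 were lower at 1 dpi than at 4 hpi (19.4% and 15% of all features), 6 were lower at 3 dpi than at 1 dpi (1.27%), 3 at 7 dpi than at 3 dpi (4.86%) and 21 at 90 dpi than at 14 dpi (7.03%). The counts of 8 and of 3 lie near the shares over all features.

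Array rows that carry 2 gene symbols entered none of the counts of the 49 genes. The row of *mrto4* and *akr7a3* had a log2 fold change of 0.81 at 4 hpi against control, and it was also higher at 1 and 3 dpi. The row of *ebna1bp2* and *sltm* had a log2 fold change of 1.12 at 1 dpi against control and was higher at each time from 4 hpi to 14 dpi. Which gene of a row gave its signal cannot be told apart. Single outlying pools were not tested in groups of 3.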

How the results depend on the processing

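The 49 genes gave 159 calls over the 11 comparisons, and no called fold change turned its sign in any alternative. Of the 159 calls, 134 stayed past the threshold under quantile normalization, 153 without a filter, 154 with an intensity trend and robust prior and 159 with the mean of the rows of a gene. With only the 6 arrays compared, which leaves fewer samples for the spread, 56 calls were lost and a further pair had no test.

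Quantile normalization gave 2 genes lower at 1 dpi, 6 lower at 3 dpi, 2 higher and 4 lower at 7 dpi, 2 lower at 14 dpi and 0 lower from 3 to 7 dpi. Of 35883 features it gave 7738 lower at 1 dpi, 7014 at 3 dpi and 3642 at 7 dpi, with 4752 higher at 7 dpi. It gave 2324 features lower at 14 dpi and 1514 from 3 to 7 dpi. Quantile normalization moved the median of all features by less than 0.1 in each comparison. Only the 6 arrays compared gave 3 higher at 7 dpi, 2 higher and 0 lower at 14 dpi, 2 lower at 90 dpi, 2 lower from 1 to 3 dpi, 0 lower from 3 to 7 dpi and 0 lower from 14 to 90 dpi. Over all features this gave 4149 of 31273 higher at 7 dpi, 2086 higher and 889 lower of 31194 at 14 dpi, and 755 of 31452 lower at 90 dpi. It gave 300 of 31185 lower from 1 to 3 dpi, 1060 of 30895 from 3 to 7 dpi and 11 of 31337 from 14 to 90 dpi. Apart from the smaller number of arrays, the cause was not tested.

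With each array left out in turn, the counts of higher genes ranged from 37 to 41 at 4 hpi, 30 to 33 at 1 dpi, 12 to 16 at 3 dpi, 2 to 4 at 7 dpi, 3 to 8 at 14 dpi and 0 to 1 at 90 dpi. The counts of lower genes ranged from 0 to 1 at 1 dpi, 2 to 3 at 3 dpi, 2 to 3 at 7 dpi, 0 to 2 at 14 dpi and 2 to 18 at 90 dpi. The lower count at 4 hpi stayed at 1. Between successive times, lower counts ranged from 3 to 8 (1 dpi against 4 hpi), 0 to 5 (3 against 1 dpi), 0 to 2 (7 against 3 dpi) and 11 to 28 (90 against 14 dpi), and the higher count at 1 dpi against 4 hpi was 0 throughout. Of the calls with all arrays, 35 of 41 at 4 hpi, 30 of 33 at 1 dpi, 12 of 18 at 3 dpi and 2 of 10 at 90 dpi were kept in every such fit.

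With the replicate number as a block, 5 of the 159 calls were lost, those of *ppan* and *gnl3l* at 3 against 1 dpi, *utp3* at 7 against 3 dpi, *imp4* at 90 against 14 dpi (adjusted p = 0.0556 in limma) and *gnl3* at 90 dpi (adjusted p = 0.0602). All 3 same-number correlations were over 0.1 only for 3 and 1 dpi, and the numbers were not taken to pair the arrays elsewhere. The block nevertheless spanned all 7 groups.

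Low signal limits *rrp9*, *polr1b* and *gar1*, whose control levels lie under the filter and below the array medians, where fold changes are least certain.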
